A study of Mus musculus with 4 samples.

Results

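Integrins and the molecules that switch them on or bind them were followed through 4 maps of accessible chromatin in mouse T cells. The set held 36 genes, taken by name: 16 integrin alpha chains, 8 integrin beta chains, 6 intracellular activators (Tln1, Tln2, Fermt3, Apbb1ip, Rap1a and Rap1b) and 6 surface partners (Icam1, Icam2, Vcam1, Selplg, Cd44 and Cd2). All 36 were found among 21631 protein-coding genes of the annotation, and 325 of 90270 joint accessible regions lay in their gene bodies or within 10 kb of them. Accessibility had been measured by ATAC-seq, in which the Tn5 transposase cuts and tags open DNA. The 4 libraries came from Scd1-deficient DN3 thymocytes, littermate control DN3 thymocytes, Scd1-deficient naive CD4 T cells and littermate control naive CD4 T cells, all untreated primary cells. Scd1 encodes a stearoyl-CoA desaturase, which makes monounsaturated fatty acids. DN3 thymocytes are early T cell precursors of the thymus, sorted here as lineage-negative cells with CD25 and without CD4, CD8 or CD44, while the naive CD4 cells were taken from spleen with a magnetic kit. Control titles carry the letters HZ without an explanation, and neither the ages nor the number of mice behind a library is given. Each group was 1 library, so no comparison below has a replicate check or a p-value, and a region absent from a list may lie just under the caller's threshold.

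An integrin is a pair of an alpha and a beta chain, and the pair decides what is bound: the beta 2 partners of leukocytes bind ICAMs, alpha 4 pairs bind VCAM1 or MAdCAM-1, and other pairs bind collagen, laminin or fibronectin. Resting integrins are bent and bind weakly until the small GTPase Rap1, its effector RIAM, talin and a kindlin act on the beta tail. Precursors use such contacts to move through the thymus, and naive T cells use them to enter lymph nodes and to hold on to antigen-presenting cells.

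A set of 4 start-site windows pictures the loci. Each runs from 250 bases before to 50 bases after a start annotated by RefSeq in GRCm38.p6 (the mm10 assembly), 5′ to 3′ on the gene's strand. Capitals mark GGAAGT, the core of many ETS factor motifs, and TGTGGT, a RUNX core, in either orientation. Itga11 (chr9:62677605-62677904, plus strand) had the single member start that was called in both DN3 libraries and in neither naive library. Itgb7 (chr15:102231886-102232185, minus strand) and Apbb1ip (chr2:22774077-22774376, plus strand) were called at these starts in all 4 libraries although their annotated gene ends gave another picture. Itga4 (chr2:79255176-79255475, plus strand) is shown as a leukocyte alpha chain that was called in all 4 libraries. The Apbb1ip and Itga4 windows were chosen after their values were seen.
Itga11: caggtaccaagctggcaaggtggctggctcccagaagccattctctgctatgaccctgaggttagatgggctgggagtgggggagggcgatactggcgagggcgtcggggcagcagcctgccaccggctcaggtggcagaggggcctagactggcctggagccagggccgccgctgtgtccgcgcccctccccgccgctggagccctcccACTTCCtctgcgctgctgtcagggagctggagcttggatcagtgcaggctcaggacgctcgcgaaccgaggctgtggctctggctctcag
Itgb7: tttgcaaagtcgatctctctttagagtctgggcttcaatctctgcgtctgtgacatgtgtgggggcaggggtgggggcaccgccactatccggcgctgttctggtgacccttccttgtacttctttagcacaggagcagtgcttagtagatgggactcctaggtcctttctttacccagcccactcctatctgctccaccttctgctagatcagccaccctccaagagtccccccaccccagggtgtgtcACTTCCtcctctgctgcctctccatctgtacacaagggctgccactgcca
Apbb1ip: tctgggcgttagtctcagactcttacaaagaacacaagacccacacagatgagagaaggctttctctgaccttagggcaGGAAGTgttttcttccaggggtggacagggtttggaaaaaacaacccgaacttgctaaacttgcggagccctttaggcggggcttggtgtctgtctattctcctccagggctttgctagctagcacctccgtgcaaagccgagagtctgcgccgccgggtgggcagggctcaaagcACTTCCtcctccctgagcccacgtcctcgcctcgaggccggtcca
Itga4: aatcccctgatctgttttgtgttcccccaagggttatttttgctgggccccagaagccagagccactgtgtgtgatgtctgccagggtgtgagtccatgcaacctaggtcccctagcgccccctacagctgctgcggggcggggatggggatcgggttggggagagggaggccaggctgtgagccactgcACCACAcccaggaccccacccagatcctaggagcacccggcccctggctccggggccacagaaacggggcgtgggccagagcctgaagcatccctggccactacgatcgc
The regions of each of the 4 lists spanned the whole Itgb7, Apbb1ip and Itga4 windows, 300 of 300 bases. At Itga11 they spanned 248 bases in Scd1-deficient DN3, 300 in control DN3 and 0 in both naive libraries. GGAAGT was found in 8 of the 24 member windows (33.3%), against 23.8% of all 32851 windows, and the longer form CCGGAAGT in 0 of 24, against 3.89%. TGTGGT was found in 3 of 24 (12.5%), against 16.8% of all windows. The E-box form CACCTG, which also counts as a CANNTG, was in 8 of 24 (33.3%) against 20.2%, and the GC box GGGCGG in 11 of 24 (45.8%) against 35.7%. Any CANNTG was in 18 (75.0% against 72.3%), the KLF form CCACCC in 8 (33.3% against 31.5%), the TCF form CTTTGA in 3 (12.5% against 16.0%), the AP-1 form TGANTCA in 2 (8.33% against 7.81%) and the GATA form AGATAA in 1 (4.17% against 11.2%). All were read on both strands. A match describes letters and not an occupied site.

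The lists held 76437 regions in Scd1-deficient DN3, 76814 in control DN3, 51297 in Scd1-deficient naive and 46576 in control naive cells, and those of the last were the widest, with a median of 894 bp against 645 to 732 bp in the other lists. Total reads are not given. The genome-wide background under a region, which grows with depth and fragment length, was 4.47 and 4.72 fragments in Scd1-deficient and control DN3 and 3.65 and 5.12 in Scd1-deficient and control naive libraries. Scd1 itself had 1 gene-end region in every library, with −log10 q of 50.8 in Scd1-deficient and 75.8 in control DN3, and 19.1 in Scd1-deficient and 24.9 in control naive cells, so the lists do not check the genotype. Of 10 DN3 marker genes, 10 and 10 had a gene-end region in Scd1-deficient and control DN3 and 8 and 7 in Scd1-deficient and control naive lists, and of 10 naive markers 9 in Scd1-deficient and 10 in control DN3, and 10 in each naive list. Among markers of other cells, 4 of 8 B cell genes were called in each list, and 6 and 5 of 9 myeloid genes in Scd1-deficient and control DN3 against 4 and 4 in the naive lists. Of 6 erythroid and platelet genes, which include Itga2b, 3 in Scd1-deficient and 4 in control DN3 and 1 in each naive list were called, and of 6 stromal genes 4 in each DN3 list and 3 in Scd1-deficient and 2 in control naive cells. The part of these cells in the results was not tested.

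Most members were open at a gene end in both cell types. A gene-end region, meaning one within 1 kb of either annotated end, was called for 31 members in Scd1-deficient DN3, 32 in control DN3, 27 in Scd1-deficient naive and 26 in control naive cells. Over all protein-coding genes the shares were 66.5% in Scd1-deficient and 66.7% in control DN3, and 58.6% in Scd1-deficient and 57.0% in control naive cells. A gene-end region was present in all 4 lists for 25 members, or 69.4% of them, against 56.1% of all genes. It was absent from all lists for 3 members, Itga2b, Itgb6 and Apbb1ip, against 31.8% of all genes. In all, 5 members, 13.9%, had one in both DN3 lists and neither naive list (Itga11, Itgad, Itgae, Tln2 and Vcam1), against 7.57% of all genes, and 1 member (Itgb7) had the reverse, against 0.347%. With every list kept to its 46576 strongest regions, 2 members had the DN3 pattern (5.56% against 3.85% of all genes) and 1 the naive pattern (2.78% against 1.45%).

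**Figure D1:**
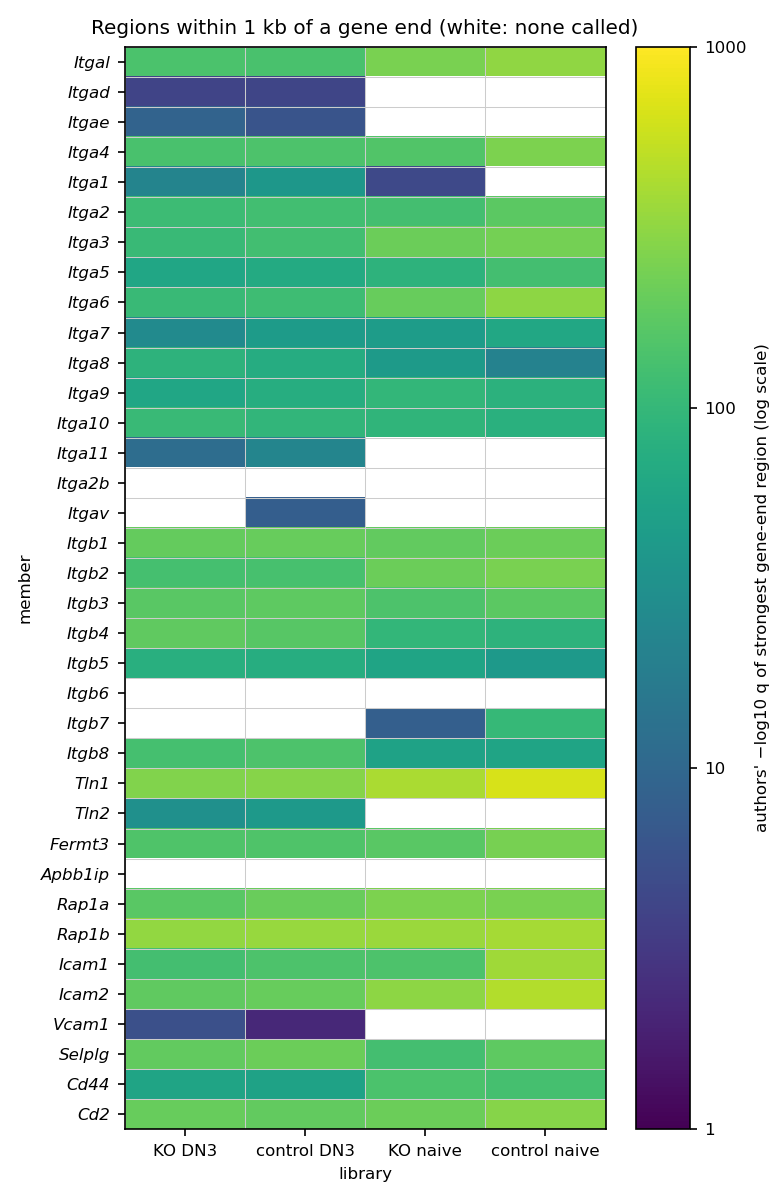
Strongest gene-end region of each of the 36 members (rows) in each library (columns; KO, Scd1-deficient), coloured by the authors' −log10 q on a log scale, with white where none was called. Itga11, Itgad, Itgae, Tln2 and Vcam1 are coloured in both DN3 columns and white in both naive columns.

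Itgal and Itga4, alpha chains of many leukocytes, were open in both cell types. Values given next are the authors' −log10 q of the strongest gene-end region, which ranks a region within its own list and grows with depth. Itgal, the alpha chain of LFA-1 (chr7:127296139-127335137), had 143 in Scd1-deficient and 138 in control DN3, and 251 in Scd1-deficient and 315 in control naive cells. Itga4, the chain shared by the VCAM1 and MAdCAM-1 receptors (chr2:79255426-79333114), had 137 in Scd1-deficient and 145 in control DN3, and 152 in Scd1-deficient and 255 in control naive cells. Both chains were thus called strongly in each library, and the naive control gave the highest value for both. Itga6, a laminin receptor chain, had 109 in Scd1-deficient and 118 in control DN3, and 200.5 in Scd1-deficient and 307 in control naive cells. Itga2 and Itga3, chains of collagen and laminin receptors, and Itga5, the fibronectin receptor chain, were also called in all lists, from 60.4 for Itga5 in Scd1-deficient DN3 to 235 for Itga3 in control naive cells. Itga7, a laminin receptor chain best known from muscle, ran from 27.3 in Scd1-deficient DN3 to 63.1 in control naive cells.

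Itga8 and Itga10 had their highest −log10 q in DN3. Itga8, which binds nephronectin in the developing kidney, had 87.7 in Scd1-deficient and 72.1 in control DN3, and 43.7 in Scd1-deficient and 21.4 in control naive cells. Itga10, a collagen receptor chain, had 108 in Scd1-deficient and 93.8 in control DN3, and 90.6 in Scd1-deficient and 79.5 in control naive cells. The Itga10 region lay at the end of transcription (chr3:96663218-96664328). The annotated start of Itga10 was called in Scd1-deficient naive cells alone (chr3:96645219-96645456), with −log10 q of 5.21. The fold over local background at the end of transcription was 12.18 in Scd1-deficient and 10.54 in control DN3. It was 13.0 in Scd1-deficient and 11.97 in control naive cells. Itga9, whose product binds tenascin-C and VCAM1, had 59.0 in Scd1-deficient and 74.8 in control DN3, and 96.6 in Scd1-deficient and 84.9 in control naive cells.

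The alpha chains called in DN3 alone were weak there. Itga11, a collagen receptor chain of fibroblasts, had 11.9 in Scd1-deficient and 23.0 in control DN3 at its start (chr9:62677237-62678986), with 28 and 42 fragments at the summits. Itgae, or CD103, the partner of beta 7 in binding E-cadherin, had 9.10 in Scd1-deficient and 6.09 in control DN3 (chr11:73090522-73090967). Itgad, a beta 2 partner of macrophages, had 4.07 in Scd1-deficient and 4.22 in control DN3, and the region lay also at an end of Cox6a2. For comparison, the median −log10 q of a whole list was 30.5 in Scd1-deficient and 33.8 in control DN3, so all 3 regions stood in the weaker part of their lists.

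Itga1, a collagen receptor chain, had 22.3 in Scd1-deficient and 38.8 in control DN3, and 4.53 in Scd1-deficient naive cells, and none was called in control naive cells. The summits held 40 fragments in Scd1-deficient and 59 in control DN3, and 16 in Scd1-deficient naive cells. With either end counted as a call for the gene, Itga1 was the single member called in 1 naive genotype alone. Of all genes, 1.93% had a call in the Scd1-deficient naive list alone and 0.37% in the control naive list alone. Itgav, a partner of several beta chains in binding RGD sequences, had a gene-end region in control DN3 alone, with 7.78, against 1.11% of all genes, and 0 members had one in Scd1-deficient DN3 alone, against 0.911%. Its annotated start lies inside the gene (chr2, position 83724397) and was called in all 4 lists, with 146 in Scd1-deficient and 128 in control DN3, and 209 in Scd1-deficient and 357 in control naive cells. Itga2b, the platelet fibrinogen receptor chain, had no region within 1 kb of either end in any list.

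Among the beta chains, Itgb1, the partner of most alpha chains, had nearly equal values, 193 in Scd1-deficient and 199.5 in control DN3, and 189.7 in Scd1-deficient and 210.5 in control naive cells. Itgb2, the beta chain of LFA-1 (chr10:77530329-77565708), had 129.9 in Scd1-deficient and 135 in control DN3, and 211 in Scd1-deficient and 249 in control naive cells. Itgb3, the partner of Itga2b and Itgav, ranged between 146 in Scd1-deficient naive and 178 in control DN3 cells. Itgb4, Itgb5 and Itgb8 each had both DN3 values of −log10 q above both naive values. The deposited fold over local background kept this order at Itgb8 alone. There it was 12.47 in Scd1-deficient and 12.65 in control DN3, and 10.42 and 10.34 in the naive libraries. Within each genotype the fold was lower in DN3 at Itgb4 (10.27 and 9.79, against 14.24 and 13.14) and Itgb5 (7.13 and 6.52, against 8.71 and 7.05). Itgb4, the laminin receptor chain of epithelia, had 186 in Scd1-deficient and 165 in control DN3, and 97.8 in Scd1-deficient and 87.7 in control naive cells. Itgb8, whose pair with alpha V activates TGF-beta, had 129 in Scd1-deficient and 143 in control DN3, and 53.3 in Scd1-deficient and 56.8 in control naive cells. Itgb6, an epithelial beta chain, had none in any list.

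The naive gene-end call of Itgb7, the beta chain of the gut-homing and E-cadherin receptors, rested on different regions in the 2 genotypes. In Scd1-deficient naive cells the strongest gene-end region had 8.0 and lay at an end of Rarg, while in control naive cells it was the start-site region, with 104, whose edge at position 102232442 reached the 1 kb window. The start-site region itself was called in all 4 lists, with 47.8 in Scd1-deficient and 48.6 in control DN3, and 73.8 in Scd1-deficient and 104 in control naive cells. Its summit held 98 and 106 fragments in Scd1-deficient and control DN3 and 163 and 229 in Scd1-deficient and control naive libraries.

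Of the activators, Tln1, the talin that links beta tails to actin in leukocytes, had the highest gene-end value of any member in both naive libraries. It had 271 in Scd1-deficient and 286 in control DN3, and 413 in Scd1-deficient and 652 in control naive cells, in a region shared with Creb3. Tln2, the second talin gene, was called in DN3 alone, with 32.2 in Scd1-deficient and 40.6 in control DN3 (chr9:67632476-67634463). Rap1b, 1 of the 2 Rap1 GTPases, had 325 in Scd1-deficient and 344 in control DN3, and 350.4 in Scd1-deficient and 393 in control naive cells, and Rap1a had between 169 in Scd1-deficient DN3 and 253 in Scd1-deficient naive cells. Fermt3, the kindlin of blood cells, had 149.8 in Scd1-deficient and 149 in control DN3, and 169.8 in Scd1-deficient and 239.9 in control naive cells. Apbb1ip, which encodes RIAM, had no gene-end region, but its annotated start inside the gene was called in all 4 lists, with 222 in Scd1-deficient and 203 in control DN3, and 228 in Scd1-deficient and 368 in control naive cells.

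Of the surface partners, Icam2, a ligand of LFA-1, lay between 186 in Scd1-deficient DN3 and 449 in control naive cells, with both naive values above both DN3 values. Icam1, the main LFA-1 ligand, had at its own start 124 in Scd1-deficient and 146 in control DN3, and 146 in Scd1-deficient and 122 in control naive cells, so no cell type stood apart there. Cd2, the receptor for CD48, had 201 in Scd1-deficient and 192 in control DN3, and 209.6 in Scd1-deficient and 288 in control naive cells. These Cd2 values belong to a region at the lower-coordinate end of the gene (chr3:101274223-101275624). The region over the other annotated end of Cd2 was naive-only and is given below. Selplg, which carries the selectin ligand PSGL-1, had 189 in Scd1-deficient and 210.3 in control DN3, and 126 in Scd1-deficient and 179 in control naive cells. Cd44, the hyaluronan receptor, had 57.1 in Scd1-deficient and 53.6 in control DN3, and 140.5 in Scd1-deficient and 129.6 in control naive cells. DN3 cells had been sorted as lacking CD44 on the surface. At this Cd44 region the fold over local background was 9.54 in Scd1-deficient and 8.48 in control DN3. It was 11.54 in Scd1-deficient and 9.16 in control naive cells. The summits held 91 fragments in Scd1-deficient and 93 in control DN3, and 205 in Scd1-deficient and 220 in control naive cells. The part of this gate in the Cd44 difference in −log10 q between the cell types was not tested. Vcam1, the ligand of alpha 4 pairs, had 1 region in all, with 5.35 in Scd1-deficient and 2.20 in control DN3 and none in either naive list.

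Where RefSeq gave a start, 22 members could be read at it. A region within 1 kb of the start was called in all 4 lists for 16 of them (72.7%), against 57.1% of 17274 genes with a start. Itga11 was called in both DN3 lists alone (4.55% against 6.67% of genes), and none in both naive lists alone (0.197% of genes). In no list were 3 called, Itga9, Itga2b and Itgb6 (13.6% against 32.6%). The Itga9 start read here lies inside the gene (chr9, position 118711692). The lower-coordinate end of Itga9 had a region in all 4 lists (chr9:118606277-118607459). Read this way, Itga11 was the single DN3-only member of the 22, and Itgb7 left the naive-only class.

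Over whole loci, 157 of the 325 regions around members (48.3%) were called in all 4 lists, against 48.0% of 88492 gene and region pairs. DN3-only regions, called in both DN3 lists and neither naive list, numbered 68 (20.9% against 24.4%), and naive-only regions 19 (5.85% against 4.22%). The members' shares thus lay near those of all genes. In 1 list alone there were 57 regions (17.5% against 15.4%), in both Scd1-deficient lists alone 3 (0.923% against 0.38%) and in both control lists alone 1 (0.308% against 0.159%), and 20 had another mix (6.15% against 7.38%). With each list kept to its 46576 strongest regions the DN3-only count was 30 of 244 (12.3% against 13.3%) and the naive-only count 35 (14.3% against 12.4%). The excess of DN3-only over naive-only regions was thus present at full list length and absent at equal list length.

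**Figure D2:**
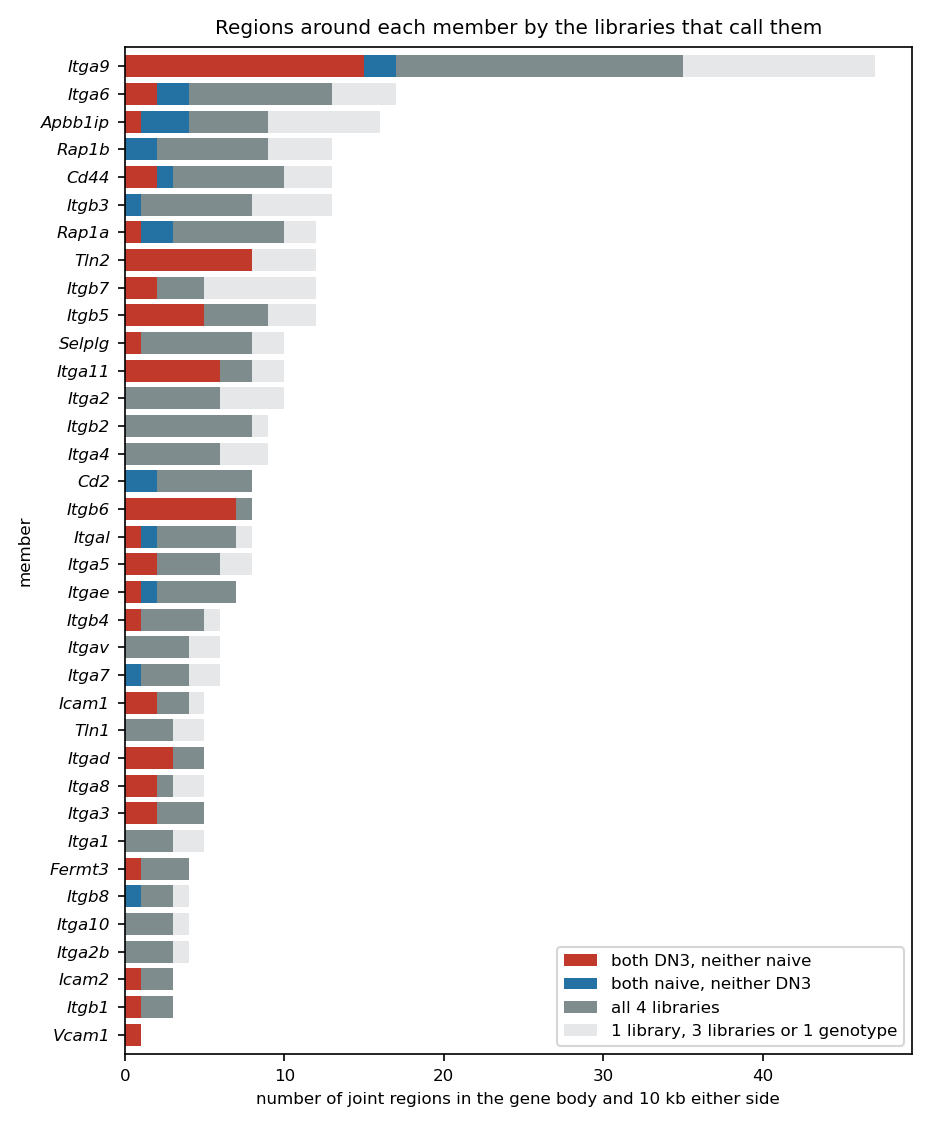
Number of joint regions (horizontal axis) around each member (vertical axis), split by the libraries that called them. Itga9 has 47 regions, 15 of them DN3-only, and Tln2 has none that a naive list called.

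Most member regions, 204 of 325, lay inside genes, and so did most DN3-only, naive-only and common ones. Over all genes 43388 of 88492 gene and region pairs lay inside genes. By class these were 13249 of 21630 DN3-only, 2682 of 3731 naive-only and 15081 of 42477 common pairs. Of the 46 regions at member gene ends, 32 were called in all 4 lists (69.6% against 74.7% over all genes), 7 were DN3-only (15.2% against 13.9%) and 1 naive-only (2.17% against 1.11%). Of the 204 in gene bodies, 83 were common (40.7% against 34.8%), 50 DN3-only (24.5% against 30.5%) and 15 naive-only (7.35% against 6.18%). Of the 75 in the flanks, 42 were common (56.0% against 50.8%), 11 DN3-only (14.7% against 21.9%) and 3 naive-only (4.0% against 3.19%). In bodies and flanks the DN3-only share was thus lower around members than over all genes, with no test of the difference. In all, 31 of the 325 regions lay at ends of other genes, 2 of them DN3-only.

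**Figure D3:**
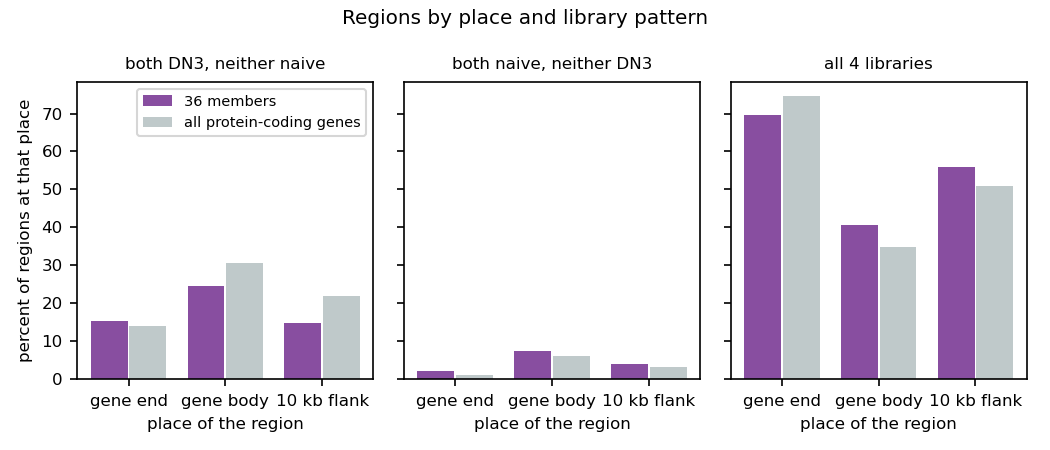
Share of regions (vertical axis, percent of regions at that place) that were DN3-only, naive-only or common, at gene ends, in gene bodies and in 10 kb flanks (horizontal axis), for the members and all protein-coding genes. In gene bodies 24.5% of member regions and 30.5% of all were DN3-only.

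The members differed widely among themselves. DN3-only regions outnumbered naive-only ones at 18 members and were outnumbered at 7. Over all gene and region pairs DN3-only regions also outnumbered naive-only ones, 21630 against 3731. At equal list length the members held 30 DN3-only and 35 naive-only regions. The tally per gene was not made over all genes. A group of 6 members (Itga9, Tln2, Itgb6, Itga11, Itgb5 and Itgad) held 44 of the 68 DN3-only regions. All of these but Itgad are genes of over 100 kb. Itga1 (143.9 kb), Itga8 (195.4 kb) and Apbb1ip (119.7 kb) are also that long and had 0, 2 and 1 DN3-only regions. Itga9 (chr9:118606709-118901003, 294.3 kb) had 40 regions in Scd1-deficient and 39 in control DN3, and 23 in Scd1-deficient and 24 in control naive cells. Its strongest DN3-only region, chr9:118714312-118715196, had −log10 q of 151 in Scd1-deficient and 159 in control DN3, at 7.96-fold and 8.06-fold over local background and with 286 and 298 summit fragments. That was the strongest DN3-only region of the set. At equal list length Itga9 had 7 DN3-only and 5 naive-only regions. Without Itga9, 53 of 278 member regions (19.1%) were DN3-only and 17 (6.12%) naive-only.

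Tln2 was the member with the most DN3 regions among those without any naive region. Across 417 kb (chr9:67217085-67634045) it had 10 regions in each DN3 list and 0 in each naive list, 8 of them shared by both DN3 lists. The strongest, chr9:67404639-67405414, had 85.3 in Scd1-deficient and 90.3 in control DN3 at 17.3-fold and 16.8-fold, and chr9:67274997-67275636 had 58.1 in Scd1-deficient and 93.5 in control DN3. At equal list length 4 DN3-only and 0 naive-only Tln2 regions were left. Tln1, by contrast, had 4 regions in Scd1-deficient and 5 in control DN3, and 4 in Scd1-deficient and 3 in control naive cells.

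Itgb6, without any gene-end region, had 8 regions in each DN3 list and 1 in each naive list, 7 of them DN3-only with −log10 q between 7.0 and 24.8. Itga11 had 6 DN3-only regions, the strongest by both lists at chr9:62753486-62754151 with 33.7 in Scd1-deficient and 36.6 in control DN3. Itgb5, which pairs with alpha V to bind vitronectin, had 5, led by chr16:33903753-33904696 with 51.6 in Scd1-deficient and 41.7 in control DN3. At equal list length 1 DN3-only region was left at Itgb6, 1 at Itga11 and 2 at Itgb5. Itgad had 3, of which chr7:128178059-128178736 had 63.4 in Scd1-deficient and 81.7 in control DN3. Fermt3 had 1, at its end of transcription (chr19:6997559-6998318), with 84.6 in Scd1-deficient and 95.2 in control DN3.

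More naive-only than DN3-only regions were found at 7 members, Apbb1ip, Cd2, Rap1b, Itga7, Itgb3, Itgb8 and Rap1a. The strongest naive-only region of the set lay in Itga7 (chr10:128940280-128941184), with 138 in Scd1-deficient and 159.7 in control naive cells at 13.9-fold and 13.4-fold. Next came chr2:71809404-71810523 in Itga6, with 90.2 in Scd1-deficient and 155 in control naive cells. Cd2 had 0 DN3-only regions and a naive-only region in its body (chr3:101283779-101284590, 54.3 in Scd1-deficient and 75.2 in control). Another naive-only region lay over its higher-coordinate end (chr3:101285764-101288361, 41.6 in Scd1-deficient and 72.5 in control). Apbb1ip had 3, among them chr2:22810891-22811757 with 43.9 in Scd1-deficient and 45.8 in control and chr2:22816190-22817565 with 43.3 in Scd1-deficient and 49.1 in control naive cells. Rap1b had 2, the stronger at chr10:117843727-117844517 with 32.9 in Scd1-deficient and 50.9 in control naive cells. At equal list length Cd2 and Rap1b had 5 naive-only regions each and Apbb1ip 3, with 0 DN3-only regions at Cd2 and Rap1b and 1 at Apbb1ip.

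**Figure D4:**
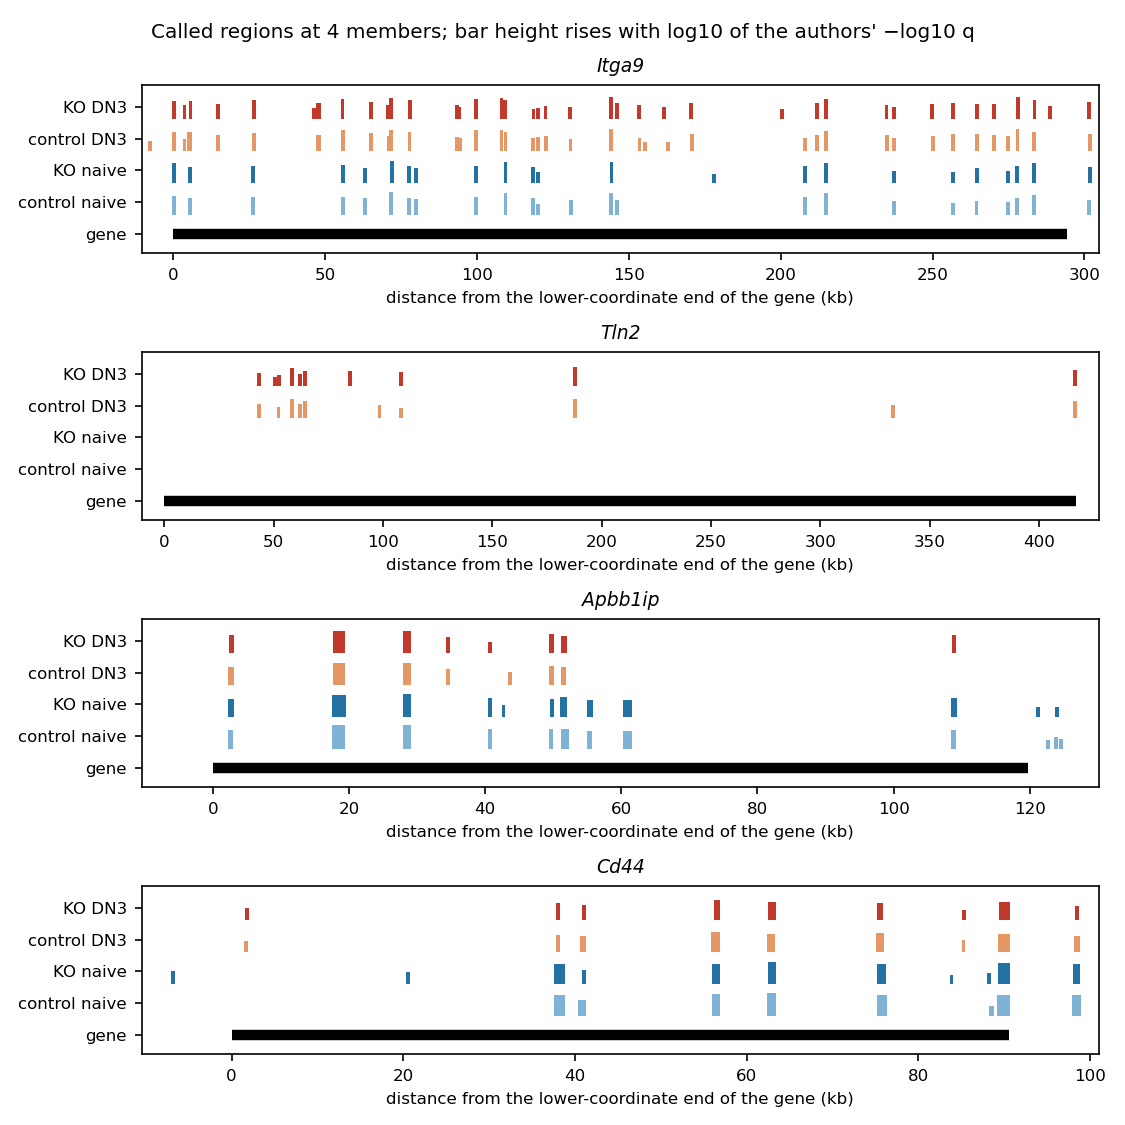
Called regions in 4 loci, by distance in kb from the lower-coordinate end of the gene (horizontal axis), with 1 row per library (KO, Scd1-deficient) and the gene as a black bar. Bar height rises with the log10 of −log10 q, and narrow regions are widened to be visible. Tln2 has no region in the naive rows, whereas 7 of 13 Cd44 and 5 of 16 Apbb1ip regions recur in all 4 rows.

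In the 157 common regions the strength was compared on 2 scales, each taken relative to the median of 30191 common regions near genes, and a difference was counted when it passed 1.5-fold in both genotypes. By fold over the local background, as deposited, 14 member regions (8.92%, against 6.98%) were higher in DN3 and 7 (4.46%, against 5.52%) higher in naive cells. By summit fragments over the genome-wide background, a scale chosen after the data were seen, 40 (25.5%, against 22.8%) were higher in DN3 and 26 (16.6%, against 9.78%) in naive cells. The 2 scales shared 9 of the DN3 and 2 of the naive calls, and 0 regions were called in opposite directions. At the common gene ends of 26 members the median log2 ratio of fold as deposited, DN3 over naive, was −0.09 in Scd1-deficient and −0.11 in control libraries, against −0.10 and −0.02 over the common gene ends of all genes. Relative to those it was 0.01 in Scd1-deficient and −0.09 in control libraries, so the Scd1-deficient value changed sign. None of these 26 passed 1.5-fold in either direction on the relative scale, against 2.19% higher in DN3 and 2.01% higher in naive over all genes.

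By fragments, 16 members had differing regions only in the DN3 direction, 8 only in the naive direction, 4 in both and 8 in neither. This split per gene was not made over all genes. Over all common regions near genes, 22.8% were higher in DN3 and 9.78% in naive cells. In the DN3 direction, Itgae had 4 of 5 common regions. Its region chr11:73093882-73095835 held 213 fragments in Scd1-deficient and 226 in control DN3 at the summit, and 56 in each naive library. On the fold scale the same region had 7.17 in Scd1-deficient and 6.82 in control DN3, and 7.67 in Scd1-deficient and 8.91 in control naive cells, so the local background was higher in DN3 too. Itga9 had 9 of 18 regions higher in DN3 and 1 higher in naive cells, and chr9:118884380-118885005 held 307 in Scd1-deficient and 329 in control DN3, and 58 in Scd1-deficient and 72 in control naive cells. Itgb4 and Itgb5 had 3 of 4 regions each in the DN3 direction, and Itga2b 3 of 3, one of them at an end of Fam171a2.

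In the naive direction, Rap1b and Cd44 had 4 of 7 common regions each, Cd2 3 of 6, Itga2 3 of 6 and Itga6 3 of 9. The Rap1b region chr10:117829136-117831199 held 31 fragments in Scd1-deficient and 21 in control DN3, and 198 in Scd1-deficient and 314 in control naive cells. The Cd2 region chr3:101279866-101281316 held 88 in Scd1-deficient and 58 in control DN3, and 345 in Scd1-deficient and 515 in control naive cells. On the fold scale this Cd2 region had 4.75 in Scd1-deficient and 3.53 in control DN3, and 5.08 in Scd1-deficient and 4.83 in control naive cells. At this Cd2 region the local background was thus higher in the naive libraries as well. The Cd44 region chr2:102873491-102874575 held 91 in Scd1-deficient and 82 in control DN3, and 273 in Scd1-deficient and 348 in control naive cells. By fold, none of these Rap1b, Cd2 and Cd44 regions passed 1.5-fold in both genotypes.

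Single genes also held regions of both kinds. Itgb3 had chr11:104636687-104637578 with 88 fragments in each DN3 library, and 21 in Scd1-deficient and 15 in control naive cells, whereas chr11:104660771-104662193 held 95 in Scd1-deficient and 122 in control DN3, and 325 in Scd1-deficient and 498 in control naive cells. Itgb2 had chr10:77556514-77558264 with 119 in Scd1-deficient and 158 in control DN3, and 65 in Scd1-deficient and 52 in control naive cells. Its region chr10:77536697-77538289 held 156 in Scd1-deficient and 186 in control DN3, and 347 in Scd1-deficient and 592 in control naive cells. On the fold scale this Itgb2 region had 8.73 in Scd1-deficient and 9.22 in control DN3, against 8.12 in each naive library. By fold, the first Itgb3 region passed 1.5-fold in the DN3 direction. The other Itgb3 region and both Itgb2 regions did not pass it in both genotypes. Itgal had 2 regions in the DN3 direction, one of them at an end of Zfp768, and 1 in the naive direction.

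**Figure D5:**
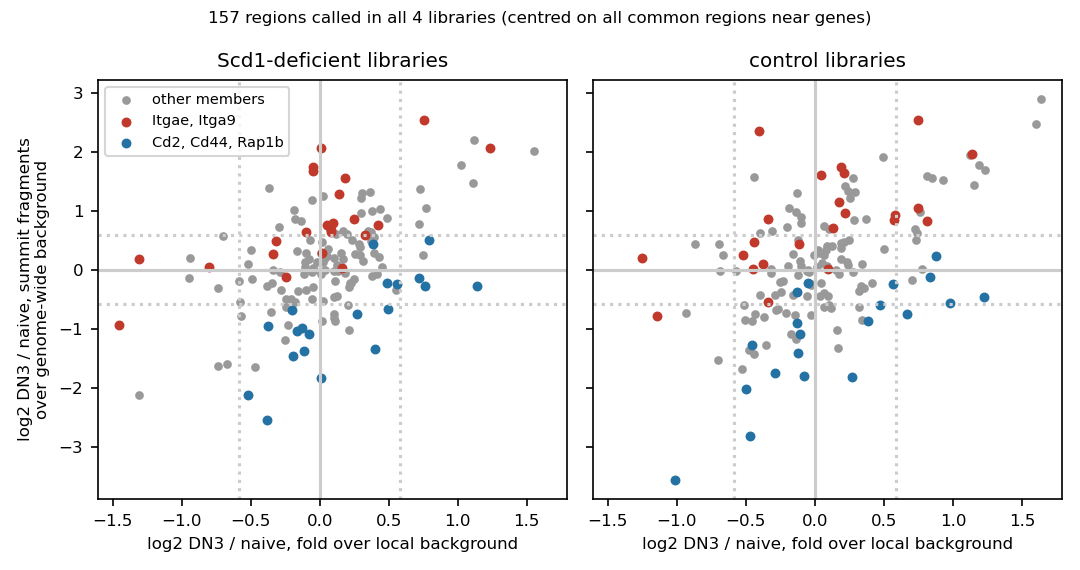
Centred log2 ratio of DN3 over naive for each of the 157 common member regions, by fold over local background (horizontal axis) and by summit fragments over genome-wide background (vertical axis), in Scd1-deficient (left) and control (right) libraries. Dotted lines mark 1.5-fold. Cd2, Cd44 and Rap1b regions (blue) mostly lie below 0 on the vertical axis and Itgae and Itga9 regions (red) mostly above it.

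Between the genotypes, few member regions stood out. In DN3, 21 of 284 member regions were called in Scd1-deficient cells alone (7.39%, Wilson 95% interval 4.89 to 11.04%, against 7.73% of all pairs), and 26 in control cells alone (9.15%, 6.32 to 13.1%, against 8.41%). In naive cells, 26 of 222 were called in Scd1-deficient cells alone (11.7%, 8.12 to 16.6%, against 10.6%) and 13 in control cells alone (5.86%, 3.45 to 9.76%, against 4.37%). The intervals cover counting error only. The naive lists also differ in length and width, and with each list kept to 46576 regions the naive counts were 13 in Scd1-deficient alone (6.22%, against 6.43%) and 20 in control alone (9.57%, against 7.74%), the opposite order. In DN3 both counts were then 9 of 182.

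Per member, the largest surplus of Scd1-deficient over control regions in DN3 was 2, at Itga6, followed by 1 at 6 members (Apbb1ip, Icam1, Itga8, Itgal, Itgb3 and Selplg). The largest deficits were 3 at Itgb7 and 2 at Itga5 and Rap1b. In naive cells the largest surpluses were 4 at Itgb3, 3 at Cd44 and 2 at Itgb7, and the lowest value was −1, at 7 members (Itga6, Itga8, Itga9, Itga11, Itgb2, Selplg and Rap1a). In DN3, 14 of the 36 members had no region of 1 genotype alone, and in naive cells 13. These counts per gene were not made over all genes, so the usual number is not known.

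The strongest DN3 region of the Scd1-deficient list alone lay in Apbb1ip (chr2:22864346-22865282), with 62.4 and 76 fragments at 14.1-fold. It was also called in both naive lists, with 75.7 in Scd1-deficient and 65.2 in control. Next came Itga9 (chr9:118752480-118752830) with 34.4, which among naive lists was called in the control alone with 16.9, and Tln2 (chr9:67301597-67302112) with 21.6. In control DN3 alone the strongest were Itga4 (chr2:79265595-79266092) with 26.4, Itga9 (chr9:118881270-118881727) with 23.9 and Rap1a (chr3:105791070-105791729) with 12.2, and all 3 were also called in both naive lists. In Scd1-deficient naive cells alone the strongest lay near Icam1 (chr9:21033159-21033616) with 33.6, in Itgb3 (chr11:104648513-104648951) with 23.6 and near Itga4 (chr2:79250055-79250332) with 23.3. The Icam1 region was also called in Scd1-deficient but not in control DN3, with 17.4, which made it 1 of the 3 member regions of both Scd1-deficient lists, together with one in Itgal (chr7:127313781-127314265) and one in Itga2 (chr13:114837147-114837454). In both control lists alone there was a single region, in Itga6 (chr2:71794420-71795035). In control naive cells alone the strongest was near Selplg (chr5:113812023-113812499), with 29.8, and it was called in both DN3 lists. Next came 2 regions in Itga9, chr9:118737048-118737914 with 18.7, also called in both DN3 lists, and chr9:118752480-118752830 with 16.9, given above.

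In the 157 common regions, the centred fold passed 1.5 in 7 comparisons of genotypes. In DN3, 0 were higher in Scd1-deficient cells (0.262% of all common regions) and 2 lower (1.27%, against 0.649%). These were chr11:104622184-104623027 in Itgb3, with 28 fragments in Scd1-deficient and 47 in control DN3, and chr13:114894688-114896625 in Itga2, with 27 in Scd1-deficient and 49 in control DN3. In naive cells 5 were higher in Scd1-deficient cells (3.18%, against 2.52%) and 0 lower (0.699% of all). The start of Itga8 had 12.2-fold in Scd1-deficient and 6.87-fold in control naive cells. Regions in Itgb1, Rap1b, Itgb3 and near Icam2 (at an end of Prr29) had 10.3, 3.71, 4.73 and 5.59-fold in Scd1-deficient naive cells, against 6.05, 2.19, 2.62 and 3.11-fold in control naive cells. The summits of these 5 regions held 56, 47, 47, 21 and 25 fragments in Scd1-deficient naive cells, against 41, 36, 45, 15 and 18 in control naive cells. At the 26 common gene ends, Itga8 was the 1 member higher in Scd1-deficient naive cells (1.31% of all genes) and 0 were lower (0.147%), and in DN3 0 were higher (0.0653%) and 0 lower (0.0898%). The background was lower in the Scd1-deficient naive library (3.65 fragments, against 5.12 in control), and its part in these ratios was not tested.

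A further 60 genes of adhesion, among them Itgam, Itgax, Fermt1, Fermt2, Rasgrp1, Skap1, Vcl and Madcam1, were read in the same way. A gene-end region was called for 55 in Scd1-deficient and 54 in control DN3, and for 51 in Scd1-deficient and 49 in control naive cells. Over all protein-coding genes the shares were 66.5% in Scd1-deficient and 66.7% in control DN3. In naive cells they were 58.6% in Scd1-deficient and 57.0% in control. Among these 60 genes it was in all 4 lists for 48, in none for 4, in DN3 alone for 4 and in naive cells alone for 1. The shares over all genes were 56.1% in all 4 lists, 31.8% in none, 7.57% in DN3 alone and 0.347% in naive cells alone. Of the 649 regions around these 60 genes, 305 (47.0%) were common, 107 (16.5%) DN3-only and 55 (8.48%) naive-only. Around the members 20.9% were DN3-only and 5.85% naive-only. Over all gene and region pairs 48.0% were common, 24.4% DN3-only and 4.22% naive-only.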

How the data were processed

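ATAC-seq libraries of 4 groups, 1 each, were assigned to groups from the labelled genotype and cell type. Trimmomatic, BWA, MACS2 and the build mm10 are named in the submitters' processing notes, without versions or settings, and for duplicate handling and any Tn5 shift nothing is stated there. The authors deposited 1 narrow peak list per library. In the deposited lists the fold is the ratio of summit pileup to local background, the −log10 p and −log10 q belong to the same summit, and the score is the whole-number part of 10 times −log10 q in at least 99.99% of peaks of each list. These authors' values were used to describe and rank regions within a list. Total reads are unknown, and a deeper library lists more weak regions.

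Regions on chromosomes 1 to 19 and X were kept, which left out 9 to 14 peaks per list. Regions of the 4 lists that overlapped by at least 1 bp were joined. Gene bodies came from RefSeq (GRCm38.p6), whose table gives no strand, so both ends of a gene were read, and start sites came from RefSeq promoter windows, which hold 22 of the 36 members. Exons and introns were not annotated. Whole fragments at a summit were recovered from the deposited fold and −log10 p, within 0.05, for 100% of peaks. Ratios between lists were taken relative to the median over all common regions and called past 1.5-fold. Motifs were searched on both strands. The steps were tested on simulated data. Python 3.11.15, pandas 2.3.3, numpy 2.4.6 and scipy 1.17.1 were used.

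The members and lists were chosen with earlier results of these data known. Named in full were members whose gene-end call differed between cell types or genotypes, the 6 members at either end of the balance of DN3-only and naive-only regions, the 3 at either end of the balance of genotypes per cell type (given here with all ties), the 5 strongest DN3-only and naive-only regions, the 3 strongest of 1 genotype alone, and the leukocyte chains Itgb2, Itgal, Itgb1, Itga4 and Itgb7. Other members, and the common regions described by fragments, were named after their values were seen. Alternatives changed the gene window, the gene-end window, list length, q, width, overlap and the scale of strength.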

Additional observations from a re-analysis of the deposited data

Results flagged for a closer look

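Summed over the 36 members, regions of the Scd1-deficient list alone minus those of the control list alone came to −5 in DN3 and to 13 in naive cells. This was picked out because the balance had opposite signs in the 2 cell types, and the difference between them was not tested. Over all gene and region pairs the balance had the same signs, with 6319 in Scd1-deficient alone and 6876 in control alone in DN3, and 5974 in Scd1-deficient alone and 2456 in control alone in naive cells. At equal list length the members' counts were 9 in Scd1-deficient alone and 9 in control alone in DN3, and 13 in Scd1-deficient alone and 20 in control alone in naive cells, so the naive sign turned. Itgb7 had the same opposite signs, with −3 in DN3 and 2 in naive cells. Of the naive regions behind the Itgb7 value, those at chr15:102214350-102215226 (an end of Zfp740) and chr15:102233927-102234163 (an end of Rarg) had −log10 q of 7.5 and 8.0 in the Scd1-deficient library, against a median of 41.1 over that list. The Itgb7 difference was not tested either.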

How the results depend on the processing

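No paired analysis was possible because the labels give 1 library per group and no replicate numbers, and for the same reason no library could be left out of a group. Of 89 alternative values 51 stayed near the reported value and 38 moved. Relative to all common gene ends, the median log2 ratio of fold, DN3 over naive, changed sign to 0.01 in Scd1-deficient libraries and was −0.09 in control libraries. The order of DN3-only and naive-only regions, and that of the naive genotypes, turned round at equal list length. With gene bodies alone, naive regions of 1 genotype alone numbered 17 in Scd1-deficient and 8 in control cells. With 50 kb flanks there were 293 common and 119 DN3-only regions, 37 in Scd1-deficient and 43 in control DN3 alone, and 20 in control naive cells alone. With a gene-end window of 500 bp, 3 members were DN3-only and 0 differed between DN3 genotypes. With 2 kb, 0 members were naive-only, 0 differed between DN3 genotypes and 2 between naive genotypes. At equal list length, 2 members were DN3-only at gene ends and 0 differed between naive genotypes, regions were 30 DN3-only and 35 naive-only, and those of 1 genotype were 9 in Scd1-deficient and 9 in control DN3, and 13 in Scd1-deficient and 20 in control naive cells. With −log10 q of at least 10, 3 members were DN3-only and 0 naive-only at gene ends and 0 differed between DN3 genotypes, and 17 regions were in control DN3 alone, 12 in Scd1-deficient naive alone and 8 in control naive alone. With regions of at least 500 bp, 2 members were DN3-only at gene ends and 35 regions DN3-only, with 13 in Scd1-deficient and 16 in control DN3 alone. Naive regions of 1 genotype alone were then 9 in Scd1-deficient and 15 in control cells, so the order of the naive genotypes turned round here too. At annotated starts, with 22 members, 16 were common, 1 DN3-only and 0 naive-only. Within the Scd1-deficient libraries alone 38 regions were in naive and not in DN3, and within the control libraries alone 30, both chosen after the data were seen. Summit fragments in place of fold, also chosen after the data were seen, gave 40 common regions higher in DN3 and 26 higher in naive cells. Fewer regions were kept at stricter q, width and list length, and the causes of the shifts were not tested. The Itgae, Itgad and Vcam1 gene ends all had −log10 q under 10 in both DN3 lists, and the part of depth in these calls was not tested.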
